A study of Homo sapiens with 18 samples.

Results

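A group of 10 genes that move iron or heme into, through and out of cells were followed across the 18 arrays of the study. The 10 form a functional group listed by name, chosen with earlier results of these data known: HAMP, HFE, TFR2, TF, TFRC, CYBRD1, SLC11A2, SLC40A1, HPX and HMOX1. They are 10 of 18404 genes that had an array feature (a probe set summed to 1 value) of their own, and each had exactly 1 such feature.

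HepG2, the source of the RNA, is an established cell line from a human hepatocellular carcinoma that still makes many plasma proteins of the hepatocyte. Thyroid hormone receptor TRα1 or TRβ1 had been introduced on an expression plasmid by G418 co-selection, and control cells carried the empty plasmid. Positive clones were combined into 1 pool per construct, from 6 clones for TRα1, 12 for TRβ1 and 11 for the control, so receptor and clones cannot be told apart. The pools were kept for 6 h with 100 nM triiodothyronine (T3, the form of thyroid hormone that binds the receptors) or with its ethanol vehicle. Serum stripped of hormones made up 10% of the medium in every group. The 6 groups were TRα1 on T3, TRα1 on vehicle, TRβ1 on T3, TRβ1 on vehicle, control on T3 and control on vehicle, with 3 arrays each from biological repeats numbered 1 to 3. All values are RMA-normalised log2 expression, so a difference of 1 is a doubling, and differences are those of a feature between arrays. Levels of different features are set side by side only for marker lists and against medians.

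The liver sets the iron level of the body through hepcidin, the peptide product of HAMP. Hepcidin binds ferroportin, the iron exporter encoded by SLC40A1, and causes its removal from the cell surface, so less iron enters the blood. HAMP transcription is raised by BMP and SMAD signalling, which HFE and TFR2 modulate when iron-loaded transferrin is abundant, and by IL6 acting through STAT3. Cells take up transferrin-bound iron through TFRC, whose mRNA is stabilised when cellular iron is low. Hemopexin (HPX) clears free heme from plasma, and heme oxygenase 1 (HMOX1) opens the heme ring and frees its iron.

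Of the 10 genes, 8 had a promoter window among the RefSeq sequences used here (GRCh38.p14). TFR2 and HMOX1 were not among them. The sequences below are the 250 bases before the start of 3 genes on which the results turn: HAMP for its response to T3, and CYBRD1 and HPX for their differences between pools. Capitals mark GGCGCC, the core of the BMP response element described for HAMP, TTCNNNGAA, the general STAT motif, and AGGTCA, the half-site bound by thyroid hormone receptors and other nuclear receptors, each searched on both strands.
HAMP: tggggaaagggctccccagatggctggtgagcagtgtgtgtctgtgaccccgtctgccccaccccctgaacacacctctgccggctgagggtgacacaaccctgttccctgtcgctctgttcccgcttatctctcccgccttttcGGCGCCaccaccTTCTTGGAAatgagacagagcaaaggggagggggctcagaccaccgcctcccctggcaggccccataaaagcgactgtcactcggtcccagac
HPX: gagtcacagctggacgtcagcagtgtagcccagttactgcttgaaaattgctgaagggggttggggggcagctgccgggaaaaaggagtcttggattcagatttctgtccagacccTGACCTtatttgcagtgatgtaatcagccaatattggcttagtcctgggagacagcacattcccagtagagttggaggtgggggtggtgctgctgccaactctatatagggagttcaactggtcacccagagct
CYBRD1: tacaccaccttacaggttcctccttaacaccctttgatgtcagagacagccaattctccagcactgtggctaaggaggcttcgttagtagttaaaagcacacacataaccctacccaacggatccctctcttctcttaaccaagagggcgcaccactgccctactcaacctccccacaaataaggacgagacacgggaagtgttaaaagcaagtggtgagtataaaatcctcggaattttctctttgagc
The HAMP window is chr19:35282278-35282527 on the plus strand. It held GGCGCC at positions -105 to -100 from the start and TTCTTGGAA, a match to the STAT motif, at -93 to -85. The HPX window is chr11:6440988-6441237 on the minus strand and held AGGTCA on the opposite strand at -134 to -129. The CYBRD1 window printed, the first of 2, is chr2:171521983-171522232 on the plus strand and held none of these letters. The second, chr2:171522224-171522473, held none either. Among the other windows of the 10 genes, AGGTCA was found once each for TF and SLC11A2, and GGCGCC in both TF windows and the TFRC window. Over 35116 RefSeq windows of the same length, 12.1% held AGGTCA, 16.4% GGCGCC and 6.57% TTCNNNGAA. A direct repeat of the half-site with 4 bases between them, the spacing preferred by thyroid hormone receptor dimers, was in 0.0142% of all windows and in none of these genes'. Only exact letters were searched and 5 of 35116 windows held them, so finding none in 13 windows carries no information. A match is a description of the letters, not of binding.

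The cells carried the hepatocyte programme in every group. The mean level of 11 hepatocyte markers lay between 11.74 and 11.95 in each of the 18 arrays, against 4.58 to 5.00 for 6 erythroid, 4.69 to 5.08 for 10 macrophage, 5.18 to 5.55 for 10 stellate and fibroblast and 4.29 to 4.58 for 9 endothelial markers. For 8 enterocyte markers, CYBRD1 among them, it lay between 5.09 and 5.44. The feature of THRA, the gene for TRα, averaged 7.96 ± 0.26 on T3 and 7.50 ± 0.10 on vehicle in the TRα1 pool (SD, n = 3 each), and its group means in the other pools lay between 7.01 and 7.07. The feature of THRB averaged 7.42 ± 0.05 on T3 and 6.95 ± 0.07 on vehicle in the TRβ1 pool, against 7.19 ± 0.29 and 6.74 ± 0.14 with TRα1 and 7.07 ± 0.16 and 6.65 ± 0.24 with the empty plasmid. Whether these features cover the introduced receptor RNA was not tested. Arrays with the same replicate number resembled each other: after group means were subtracted, 18 of 18 arrays correlated best, among the arrays of other groups, with one of their own number. Differences are therefore given from the fit of group means alone and, where it changes a call, from the fit that adds the replicate number as a block. A gene is called changed when its adjusted p in limma is under 0.05, over 20546 features with a gene symbol.

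HAMP rose on T3 when same-numbered repeats were matched, and no other gene of the 10 passed the test in either fit. It was 1.48-fold higher on T3 averaged over the pools, and 1.73-fold in the TRβ1 pool, the 1 pool in which it passed alone. Both calls were lost when the replicate number was a random block (adjusted p = 0.164 over the pools and 0.635 in the TRβ1 pool). SLC40A1, the gene of hepcidin's target, was also higher on T3 in every matched pair, as were 2.04% of features, but did not pass the test. The carriers and importers TF, TFRC and SLC11A2 differed by less than 0.1 in each pool's mean.

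**Figure D1:**
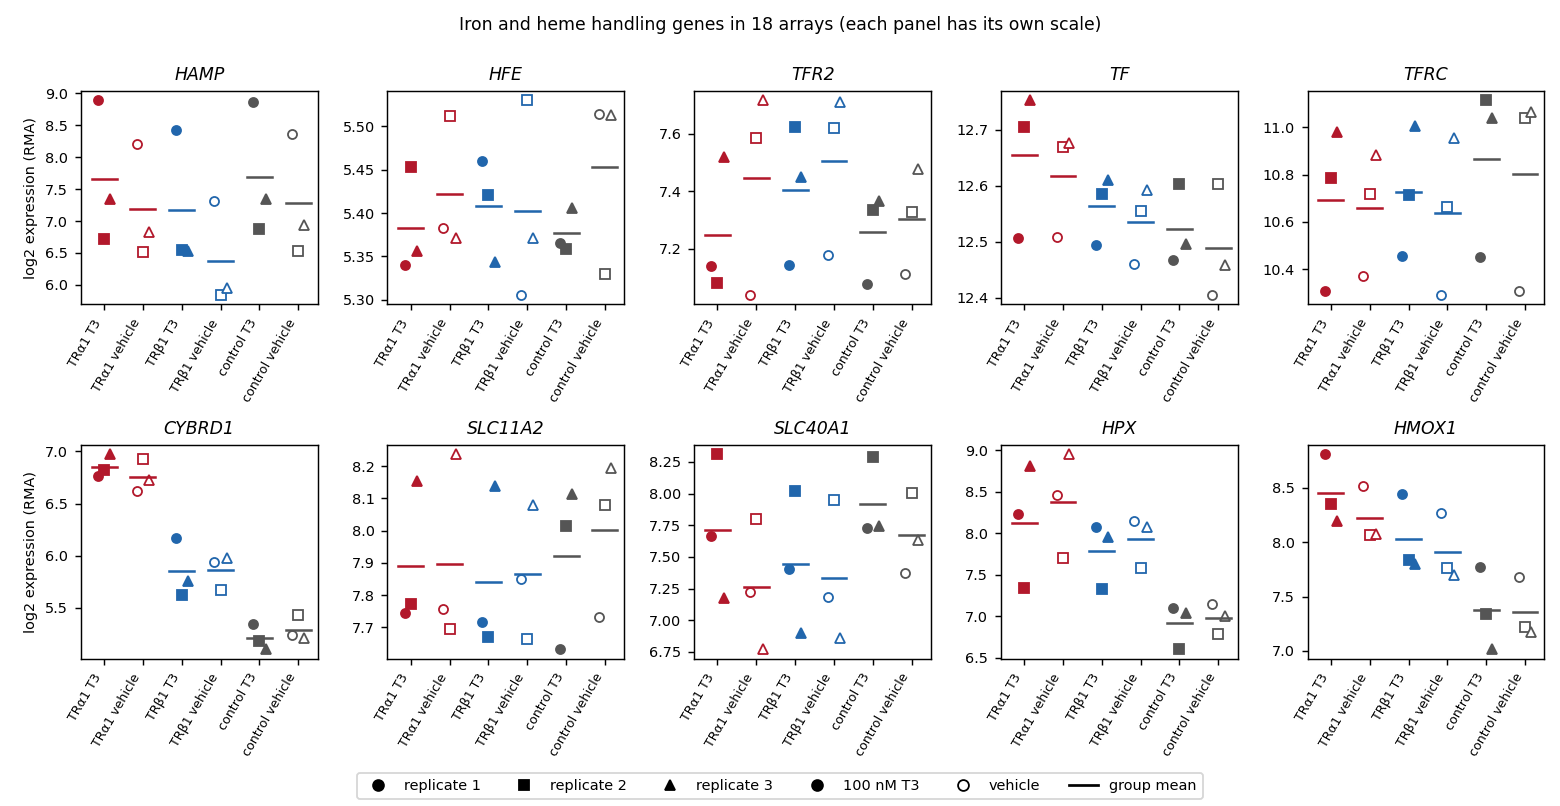
Log2 expression (vertical axes, each panel on its own scale) of the 10 genes in the 6 groups (horizontal axes, TRα1, TRβ1 and control, T3 left of vehicle), with 1 point per array, shapes for replicate numbers, filled points for T3 and lines for group means. HAMP was highest in replicate 1 of every group, and CYBRD1, HPX and HMOX1 were higher in both receptor pools than in the control pool.

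HAMP (feature 8027819) had log2 levels of 8.89, 6.72 and 7.35 in the TRα1 pool on T3, against 8.21, 6.51 and 6.82 on vehicle, in the order of replicates 1, 2 and 3. In the TRβ1 pool it had 8.43, 6.54 and 6.53 on T3, against 7.31, 5.85 and 5.96 on vehicle. In the control pool it had 8.87, 6.87 and 7.35 on T3, against 8.36, 6.53 and 6.94 on vehicle. The T3 and vehicle arrays overlapped in each pool. Replicate 1 stood above the others in every group, with a mean of 8.35 over its 6 arrays against 6.50 and 6.82 for replicates 2 and 3. With replicate 1 set aside, the T3 and vehicle arrays still overlapped in the TRα1 and control pools, but not in the TRβ1 pool. Within a replicate number, T3 was above vehicle in 9 of 9 pairs, by 0.21 to 1.11, a pattern that 2.04% of all features showed.

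T3 minus vehicle for HAMP was 0.47 with TRα1, 0.79 with TRβ1 and 0.42 with the empty plasmid. Without the block these differences had an SE of 0.71 each. None of the 30 limma tests of the 10 genes was called without the block, 0 of 30 had an unadjusted p under 0.05, and 0.131%, 0.0730% and 0.00973% of features were called with TRα1, TRβ1 and the empty plasmid. With the block the SE was 0.12 and the TRβ1 response was called (adjusted p = 0.0049, 95% interval 0.53 to 1.05), where 0.477% of features were, and 5 of 30 tests had an unadjusted p under 0.05. The TRα1 response (adjusted p = 0.137, interval 0.21 to 0.73) and the control response (adjusted p = 0.502, interval 0.16 to 0.68) did not pass with the block, where 0.667% and 0.0973% of features did. The TRβ1 call was lost without the replicate 1 array on T3 (0.63, adjusted p = 0.057) and when any repeat was left out whole.

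Averaged over the 3 pools, the HAMP response was 0.56 ± 0.41 (SE) without the block, with an adjusted p of 1, where 0.423% of features were called. With the block it was 0.56 ± 0.07 (SE), with an adjusted p of 2.2e-04 and an interval of 0.41 to 0.71, and it was the 1 gene of the 10 called, where 1.69% of features were. This call was kept in 18 of 18 fits that left out 1 array and in 3 of 3 that left out a repeat, at an adjusted p of up to 0.045. The median T3 response of the 10 genes was 0.02, against -0.01 over all features.

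The HAMP response in the TRβ1 pool exceeded that in the control pool by 0.38 with the block (interval 0.01 to 0.74, unadjusted p = 0.045, adjusted p = 1) and that in the TRα1 pool by 0.32 (interval -0.04 to 0.69). The TRα1 and control responses differed by 0.05 (interval -0.31 to 0.42). None of the 30 differences of responses was called for the 10 genes in either limma fit, and at an unadjusted p under 0.05 there were 0 without the block and 1 with it. Among all features 0% were called without the block, and with it 0.0292% for TRα1 against control and 0% for the other 2 differences. A difference of the HAMP response between pools was thus not detectable with 3 arrays a group, and the intervals still allow one of up to 0.74.

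**Figure D2:**
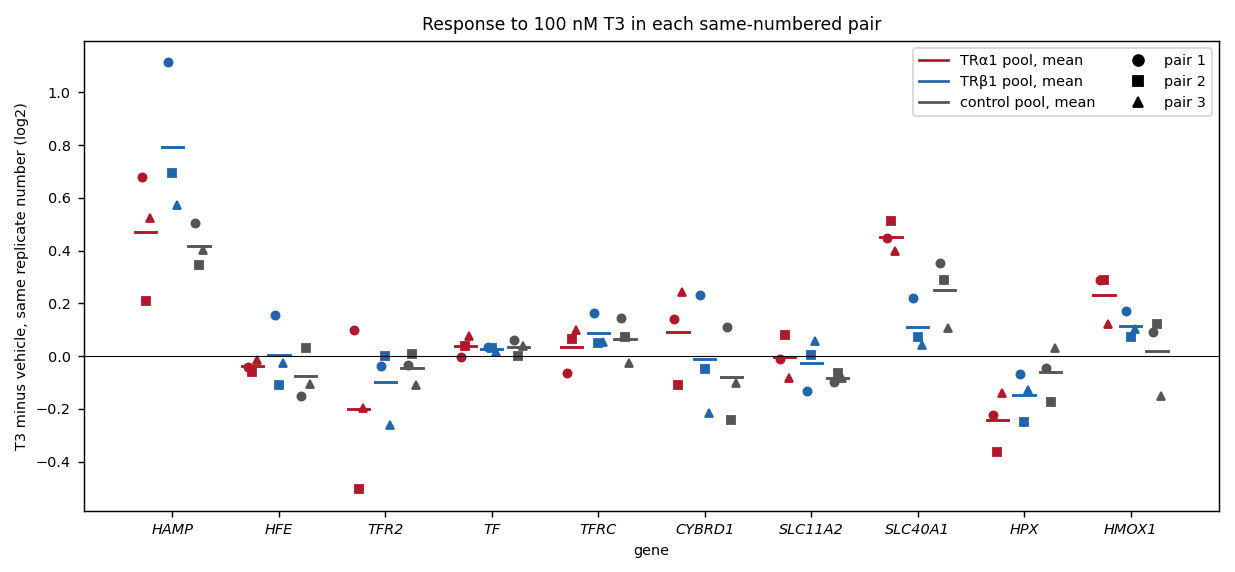
T3 minus vehicle within each same-numbered pair (vertical axis, log2) for the 10 genes (horizontal axis), with pools by colour, pairs by shape and a line at each pool's mean. All 9 HAMP pairs and all 9 SLC40A1 pairs lie above 0, as for 2.04% of all features, with HAMP pairs between 0.21 and 1.11.

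HFE and TFR2, which act upstream of hepcidin, were not called with HAMP. HFE (feature 8117343), the atypical MHC class I protein lost in the common form of hereditary hemochromatosis, stayed between 5.31 and 5.53 in all 18 arrays, and its mean lay below the median of all features. Its T3 response was -0.04 over the pools (interval -0.14 to 0.06 with the block). TFR2 (feature 8141560), the liver's sensor of iron-loaded transferrin, lay between 7.04 and 7.72 and was lower on T3 in 6 of 9 pairs, with a mean response of -0.11 (interval -0.25 to 0.02). Neither was called in any comparison.

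SLC40A1 (feature 8057677) had 7.67, 8.31 and 7.17 in the TRα1 pool on T3, against 7.22, 7.80 and 6.77 on vehicle. In the TRβ1 pool it had 7.41, 8.02 and 6.90 on T3, against 7.19, 7.95 and 6.86 on vehicle. In the control pool it had 7.73, 8.29 and 7.74 on T3, against 7.37, 8.0 and 7.63 on vehicle. Replicate 2 was highest in every group, and T3 was above vehicle in 9 of 9 matched pairs, by 0.04 to 0.51, as for 2.04% of features. The response was 0.45 with TRα1, 0.11 with TRβ1 and 0.25 with the empty plasmid, with a mean of 0.27 ± 0.08 (SE, with the block, interval 0.10 to 0.44) that missed the threshold (unadjusted p = 0.0044, adjusted p = 0.148). The TRβ1 minus TRα1 difference of these responses was -0.34 (interval -0.76 to 0.08) and was not called.

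The transport genes were nearly level between T3 and vehicle. TF (feature 8082797), which encodes the plasma iron carrier transferrin, lay between 12.41 and 12.75 and averaged 0.03 higher on T3 (interval -0.05 to 0.12). TFRC (feature 8093053), the transferrin receptor, lay between 10.29 and 11.11 and averaged 0.06 higher on T3 (interval -0.05 to 0.17). SLC11A2 (feature 7963212), the divalent metal transporter DMT1 that carries iron out of the endosome, lay between 7.63 and 8.24 and averaged -0.04 on T3 against vehicle (interval -0.16 to 0.09). TFRC separated the repeats instead of the treatments: its 6 replicate 1 arrays averaged 10.36 and all lay below the other 12 arrays, which averaged 10.84 in replicate 2 and 10.99 in replicate 3. Replicate 1 thus averaged 0.55 below the mean of the other repeats for TFRC, and 1.68 above it for HAMP, whose replicate 1 arrays overlapped with the others across groups (lowest 7.31 in replicate 1, highest 7.35 in replicate 3).

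The 2 heme genes lay on opposite sides of 0 on T3, both by small amounts. HPX was lower on T3 in 8 of 9 pairs, as were 6.35% of features in 8 or 9 pairs, with mean responses of -0.24, -0.15 and -0.06 with TRα1, TRβ1 and the empty plasmid. HMOX1 was higher in 8 of 9 pairs, as were 5.10% of features in 8 or 9, with responses of 0.23, 0.12 and 0.02 in the same order of pools. Averaged over the pools, HPX stood at -0.15 (interval -0.37 to 0.07, adjusted p = 0.695 with the block) and HMOX1 at 0.12 (interval 0.03 to 0.22, adjusted p = 0.266 with the block). Neither passed the test.

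The lists of genes around hepcidin were next read beside HAMP. These lists too were chosen with earlier results of these data known, and HAMP is itself counted in the 2 hepcidin lists. For T3 averaged over the pools, 0.423% of all features were called without the block and 1.69% with it, the shares to set beside each list count below. The IL6 and STAT3 list held 17 genes, all measured: 1 rose without the block and 5, HAMP included, with it, and none fell. At an unadjusted p under 0.05 in limma, 3 were higher and 1 lower without the block, and 6 higher and 1 lower with it. The list's median was 0.10 against -0.01 over all features. The gene called in both fits was FGA, the fibrinogen alpha chain, at 0.38 (adjusted p = 0.0056 without the block and 1.4e-04 with it). With the block HAMP, FGG (fibrinogen gamma chain, 0.35, adjusted p = 0.0031), FGB (fibrinogen beta chain, 0.26, adjusted p = 0.049) and IL6R (the IL6 receptor, 0.20, adjusted p = 0.030) joined it. The other 12 were not called, among them SOCS3 and the acute phase genes CRP, SAA1, SAA2, HP and LBP, picked here after their values were seen.

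Of 22 measured genes in the BMP and HFE list, none was called in limma without the block (0 at an unadjusted p under 0.05) and 2 rose with it, HAMP and ID2, an inhibitor of basic helix-loop-helix factors that BMP signalling raises (0.31, adjusted p = 0.042). The SMAD reporters of that pathway were not called: ID1 stood at 0.03 (interval -0.11 to 0.17), SMAD7 at -0.08 (interval -0.20 to 0.05) and SMAD6 at -0.08 (interval -0.21 to 0.04). ID3 stood at -0.18 (interval -0.40 to 0.04) and BAMBI at -0.21 (interval -0.33 to -0.09, adjusted p = 0.100 in limma with the block). On the other side of 0, FURIN stood at 0.26 (interval 0.11 to 0.42, adjusted p = 0.109 in limma with the block). All of these were named after their values were seen. With the block, 3 of the 22 genes were higher and 2 lower at an unadjusted p under 0.05. The list's median was -0.03.

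**Figure D3:**
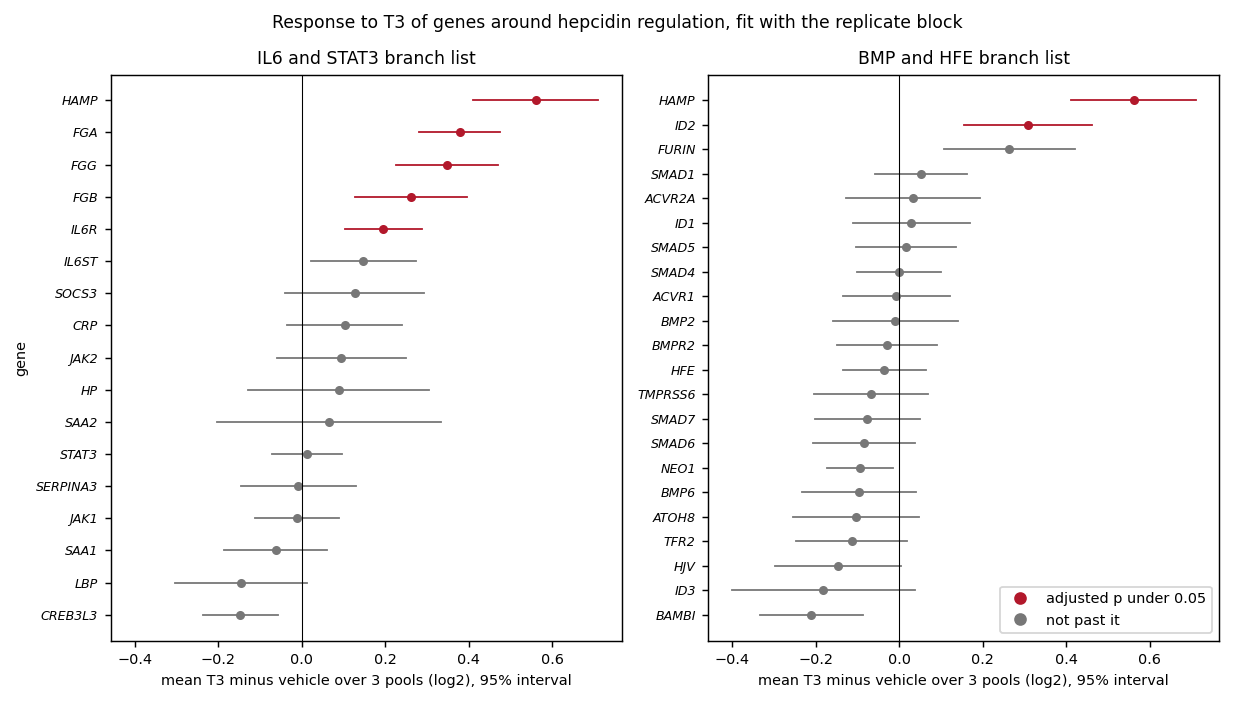
Mean T3 minus vehicle over the 3 pools (horizontal axis, log2, with 95% intervals from the fit with the replicate block) for each measured gene of the IL6 and STAT3 list and of the BMP and HFE list (vertical axis). Red points have an adjusted p under 0.05, which 5 of 17 and 2 of 22 genes had, HAMP being in both lists.

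Among 23 measured genes of iron uptake, export and storage, none was called without the block (2 at an unadjusted p under 0.05) and 2 rose on T3 with it. These were EPAS1, the hypoxia-inducible factor HIF-2α (0.30, adjusted p = 0.0014), and NCOA4, the receptor that delivers ferritin to autophagy (0.30, adjusted p = 0.0038). None of 4 genes of cytosolic iron sensing was called, the largest differences being -0.10 for ACO1, which encodes IRP1, and 0.09 for SKP1. None of 11 genes of heme synthesis was called: ALAS1, the rate-limiting enzyme in liver, stood at 0.16 (adjusted p = 0.056 with the block) and ABCB6 at -0.15 (adjusted p = 0.176). None of 16 genes of heme binding, breakdown and transport or of 11 iron-sulfur cluster genes was called either in limma, the largest being ABCG2 at 0.26 (adjusted p = 0.080 with the block) and GLRX5 at 0.26 (adjusted p = 0.067). At an unadjusted p under 0.05 with the block there were 1 of the sensing genes, 2 of heme synthesis, 5 of heme handling and 1 of cluster assembly, and without the block 0, 2, 0 and 0.

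Of 13 hypoxia targets, SLC2A1, the glucose transporter GLUT1, fell in both fits (-0.52, adjusted p = 1.5e-04 without the block), and ADM, adrenomedullin, rose with the block (0.28, adjusted p = 0.036). Of 13 NRF2 targets, SRXN1, sulfiredoxin, rose with the block (0.20, adjusted p = 0.036). Over the macrophage markers CD14, the lipopolysaccharide co-receptor, was called (0.70, adjusted p = 5.1e-04 without the block), while the other 9 of 10 were not. The mean level of these 10 markers was 4.84 to 5.08 on T3 and 4.69 to 4.95 on vehicle over the pools, and its part in the HAMP response was not tested.

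Between the pools the pattern was different: CYBRD1, HPX and HMOX1 were higher with an added receptor than with the empty plasmid, in the order TRα1, TRβ1, control on both treatments, and HAMP was lower in the TRβ1 pool. Group means had that order on vehicle and on T3 for TF as well, and for 8.06% of all features. In bulk RNA, fewer cells of a type and less RNA per cell cannot be told apart. On vehicle 1 of 30 differences between pools was called for the 10 genes without the block, where 0.307% of features were for TRα1 against control, 0.117% for TRβ1 against control and 0% between the receptor pools. With the block 8 of 30 were, where 2.07%, 0.735% and 0.540% of features were in that order. On T3 2 of 30 were called without the block (0.433%, 0.156% and 0.0438% of features) and 8 with it (2.83%, 0.871% and 0.604%). For the mean of both treatments, chosen after the data were seen, 5 of 30 were called without the block, where 1.38% of features were for TRα1 against control, 0.380% for TRβ1 against control and 0.350% between the receptor pools. With the block 11 of 30 were, where 7.54%, 3.61% and 2.20% of features were in that order: CYBRD1 and HMOX1 in all 3 comparisons, HPX for both receptors against control, HAMP for TRβ1 against control and against TRα1, and SLC40A1 for TRβ1 against control.

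CYBRD1 (feature 8046333), the duodenal ferric reductase cytochrome b that reduces iron before its import, had 6.76, 6.82 and 6.97 in the TRα1 pool on T3 and 6.62, 6.93 and 6.72 on vehicle. In the TRβ1 pool it had 6.17, 5.63 and 5.76 on T3 and 5.94, 5.67 and 5.98 on vehicle. In the control pool it had 5.35, 5.19 and 5.11 on T3 and 5.24, 5.43 and 5.21 on vehicle. The control values, 5.11 to 5.43, lay near the medians of the arrays (5.31 to 5.49). Whether they rise above background was not tested, so fold differences against the control pool rest on a low level. None of the 3 pools overlapped with another on either treatment. Of all features, 7.67% on vehicle and 10.1% on T3 were as separate for TRα1 against control, 6.59% and 7.64% for TRβ1 against control, and 5.47% and 5.85% between the receptor pools. T3 minus vehicle was 0.09 with TRα1, -0.01 with TRβ1 and -0.08 with the empty plasmid.

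The TRα1 pool exceeded the control pool in CYBRD1 by 1.46 on vehicle, 2.76-fold (adjusted p = 4.7e-05 without the block and 2.6e-05 with it). On T3 the excess was 1.63, 3.10-fold (adjusted p = 1.3e-05 without the block). Both calls were lost without the block when replicate 3 was left out whole (adjusted p = 0.095 on vehicle and 0.061 on T3) and kept with the block. The difference TRβ1 minus TRα1 was -0.89 on vehicle (adjusted p = 0.075 without the block, 0.0054 with it, a call lost when any of the 3 repeats was left out whole, at up to 0.174). On T3 it was -0.996 (adjusted p = 0.0093 without the block, lost without replicate 2 or 3 of either pool's T3 arrays). With the block the T3 difference passed in 18 of 18 fits that left out 1 array and was lost when replicate 2 or 3 was left out whole (adjusted p of up to 0.260).
The TRβ1 pool exceeded the control pool by 0.57 on vehicle (adjusted p = 0.35 without the block, 0.077 with it) and by 0.64 on T3 (0.16 and 0.040). The T3 call with the block was kept in 7 of 18 fits that left out 1 array and in 0 of 3 that left out a repeat.

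HPX (feature 7946167) had 8.24, 7.34 and 8.81 in the TRα1 pool on T3 and 8.46, 7.71 and 8.95 on vehicle. In the TRβ1 pool it had 8.08, 7.33 and 7.95 on T3 and 8.14, 7.58 and 8.08 on vehicle. In the control pool it had 7.10, 6.61 and 7.04 on T3 and 7.15, 6.78 and 7.01 on vehicle. Every receptor array lay above every control array of the same treatment. Of all features, 7.67% on vehicle and 10.1% on T3 were as separate, in either direction, for TRα1 against control, and 6.59% and 7.64% for TRβ1 against control. TRα1 exceeded control by 1.39 on vehicle and 1.21 on T3, which passed with the block (adjusted p = 5.5e-04 and 0.0013) and not without it (0.163 and 0.235). With the block the T3 call was lost when replicate 1 was left out whole (0.061).
TRβ1 exceeded control by 0.96 on vehicle and 0.87 on T3, which passed with the block (adjusted p = 0.022 and 0.036) and not without it (1 for both). With the block these calls were kept in 14 of 18 and 11 of 18 fits that left out 1 array, and in 1 of 3 (the one without replicate 3) and 0 of 3 that left out a repeat (adjusted p of up to 0.268 and 0.211). The TRβ1 pool was below the TRα1 pool in 6 of 6 pairs, as for 5.60% of features, with mean differences of -0.44 on vehicle and -0.34 on T3 that did not pass in either fit.

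HMOX1 (feature 8072678) had 8.81, 8.36 and 8.20 in the TRα1 pool on T3 and 8.52, 8.07 and 8.07 on vehicle. In the TRβ1 pool it had 8.44, 7.83 and 7.80 on T3 and 8.27, 7.76 and 7.70 on vehicle. In the control pool it had 7.77, 7.34 and 7.02 on T3 and 7.68, 7.22 and 7.17 on vehicle. The receptor pools did not overlap with the control pool on either treatment, as for 7.67% of features on vehicle and 10.1% on T3 with TRα1, and 6.59% and 7.64% with TRβ1. Replicate 1 was highest in each group. TRα1 exceeded control by 0.86 on vehicle and 1.08 on T3, 1.82-fold and 2.11-fold, with adjusted p values of 1.5e-05 and 1.5e-06 with the block and of 0.302 and 0.074 without it.
TRβ1 exceeded control by 0.55 on vehicle (adjusted p = 0.0016 with the block) and by 0.65 on T3 (adjusted p = 3.8e-04 with the block), neither of which passed without the block (1 for both). With the block the vehicle call was lost without any repeat (adjusted p of up to 0.101), and the T3 call without replicate 3 (0.091). TRβ1 minus TRα1 was -0.31 on vehicle (adjusted p = 0.102 with the block) and -0.43 on T3 (adjusted p = 0.017 with the block, kept in 12 of 18 fits that left out 1 array and in 0 of 3 that left out a repeat).

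HAMP did not share this order. It was lower in the TRβ1 pool than in the control pool in 6 of 6 pairs, as were 4.73% of features, with mean differences of -0.90 on vehicle and -0.53 on T3. On vehicle the difference passed with the block (adjusted p = 0.0014, interval -1.16 to -0.65) and not without it (1), and on T3 it did not pass with the block (adjusted p = 0.058). The TRβ1 pool was also below the TRα1 pool in 6 of 6 pairs, as for 5.60% of features, at -0.81 on vehicle (adjusted p = 0.0050 with the block) and -0.49 on T3 (adjusted p = 0.113 with the block). TRα1 minus control was -0.09 on vehicle (interval -0.35 to 0.16) and -0.04 on T3 (interval -0.30 to 0.22). Leaving out replicate 1 or replicate 3 whole removed the vehicle call against control (adjusted p of up to 0.096), and leaving out any repeat removed that against TRα1 (up to 0.187). Averaged over both treatments, the TRβ1 pool stood at -0.72 against control (adjusted p = 1.9e-04 with the block, kept in 18 of 18 fits that left out 1 array and 3 of 3 that left out a repeat) and at -0.65 against TRα1 (6.6e-04, lost without replicate 3).

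**Figure D4:**
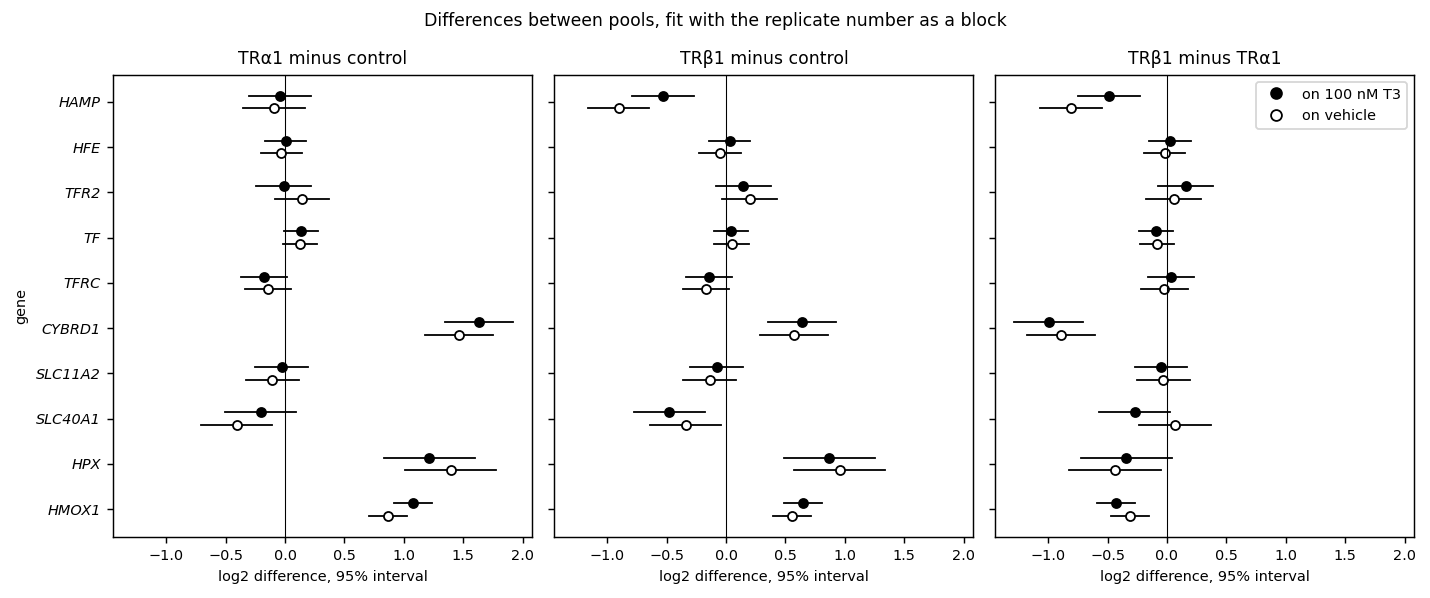
Differences between pools (horizontal axes, log2, points with 95% intervals from the fit with the replicate block) for the 10 genes (vertical axis), on T3 (filled) and on vehicle (open). CYBRD1, HPX and HMOX1 lie right of 0 for TRα1 and for TRβ1 minus control, and HAMP lies left of 0 for TRβ1 minus control and TRβ1 minus TRα1.

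Of the remaining genes, SLC40A1 passed in 1 comparison and the others in none. SLC40A1 was lower in the TRβ1 pool than in the control pool in 6 of 6 pairs, as were 4.73% of features. The difference was -0.34 on vehicle and -0.48 on T3, which did not pass on either treatment alone (adjusted p = 0.392 and 0.158 with the block). Averaged over both treatments it was -0.41 (interval -0.62 to -0.20), which passed with the block (adjusted p = 0.033) and not without it (1). That call was kept in 11 of 18 fits that left out 1 array and in 0 of 3 that left out a repeat (adjusted p of up to 0.273). It was lost without any TRβ1 vehicle array, TRβ1 T3 replicates 2 or 3, or replicate 3 of either control group. The largest TRβ1 differences were those of replicate 3, at -0.78 on vehicle and -0.84 on T3. The lower level was not particular to TRβ1: TRα1 minus control for SLC40A1 was -0.41 on vehicle and -0.20 on T3. It was below 0 in 5 of 6 pairs and was not called in limma with or without the block. TF was higher in the TRα1 pool than in the control pool in 6 of 6 pairs, as were 7.38% of features, by 0.13 on each treatment (adjusted p = 0.432 and 0.386 with the block). TFR2 was higher in the TRβ1 pool than in the control pool in 6 of 6 pairs, as were 5.13% of features, by 0.20 on vehicle and 0.15 on T3 (adjusted p = 0.540 and 0.656 with the block). TFRC lay between -0.18 and -0.14 in the receptor pools minus control, SLC11A2 between -0.14 and -0.03 and HFE between -0.05 and 0.03, and none of these differences was called. Over the 10 genes the median difference on vehicle was 0.05 for TRα1 minus control and -0.00 for TRβ1 minus control, against 0.00 and -0.00 over all features.

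The gene lists were read for the pools as well. Of 16 genes of heme binding, breakdown and transport, 4 were higher and 1 lower in the TRα1 pool than in control on vehicle with the block, where 2.07% of features were called, and none was called in limma without it (3 at an unadjusted p under 0.05), where 0.307% were. The higher genes were HPX, HMOX1, HP, the hemoglobin carrier haptoglobin (0.79, adjusted p = 0.029), and FLVCR2, a membrane transporter linked to heme (0.47, adjusted p = 0.0059), and the lower gene was LRP1, the hemopexin receptor (-0.40, adjusted p = 0.0077). On T3 HPX, HMOX1 and FLVCR2 (0.39) were higher and LRP1 (-0.31) lower. The list's median was 0.02 on vehicle and 0.10 on T3. In the same comparison on T3, where 2.83% of features were called with the block, UROD of the heme synthesis list was lower (-0.35, adjusted p = 0.039). GLRX5 of the iron-sulfur cluster list was higher there (0.58, adjusted p = 0.011 with the block). Neither was called without the block. Of 13 NRF2 targets, HMOX1 was higher in the TRα1 pool, SLC7A11, the cystine importer, was lower (-0.65 on vehicle, adjusted p = 0.0012 with the block) and the other 11 were not called.

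Of 23 genes of iron uptake, export and storage, CYBRD1 was the 1 called between pools on either treatment alone. For TRα1 against control, 2.07% of features on vehicle and 2.83% on T3 were called with the block, and 0.307% and 0.433% without it. With the block the shares were 0.735% and 0.871% for TRβ1 against control, and 0.540% and 0.604% between the receptor pools. In the IL6 and STAT3 list HP and SERPINA3, the acute phase protease inhibitor (0.79, adjusted p = 0.0012 with the block), were higher in the TRα1 pool than in control on vehicle. Neither of them was called without the block. In the BMP and HFE list BAMBI, a decoy receptor that BMP signalling raises, was higher in the TRα1 pool than in control by 0.89 on vehicle (adjusted p = 1.6e-04 with the block) and 0.76 on T3. BAMBI was not called without the block on either treatment. HAMP was lower in the TRβ1 pool and no other gene of the 2 hepcidin lists was called for TRβ1 against control on either treatment alone. Among 11 hepatocyte markers TTR, the thyroid hormone carrier transthyretin, was lower in the TRα1 pool than in control at -0.59 on vehicle (adjusted p = 5.1e-04 with the block) and -0.81 on T3 (adjusted p = 0.024 without the block), and on T3 AFP (-0.37) and ALB (-0.27) were lower with the block. The enterocyte list, which contains CYBRD1, had no other gene called on either treatment alone.

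Features with the most similar pattern to each gene were found by Pearson's r over the 18 arrays, after the mean of each replicate number was subtracted. These arrays share the pools and treatments, so r describes the shared pattern of the groups. HAMP was most like ARHGEF10L (0.92), DIO1, the type 1 deiodinase (0.91), and CYP24A1, the vitamin D 24-hydroxylase (0.88). CYBRD1 was most like CEP41, SERPINA3 and BCAM (0.95 each), HPX like GALNT2 (0.96), SULT1C2 (0.95) and SERPINA7, the thyroxine-binding globulin (0.95), and HMOX1 like CES1 (0.98), UGT2B4 (0.97) and ENPP2 (0.97). SLC40A1 was most like MELK (0.87), POC5 (0.86) and ATAD1 (0.85), and TF like SERPINF1 (0.93), FETUB (0.91) and ORM2 (0.90). Within the 10 genes, r was 0.94 between CYBRD1 and HMOX1, 0.89 between HPX and HMOX1 and 0.87 between CYBRD1 and HPX. TF reached 0.86 with CYBRD1, 0.80 with HMOX1 and 0.76 with HPX. Between HAMP and SLC40A1 r was 0.67, and the lowest r was -0.68, between SLC40A1 and HPX.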

How the data were processed

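Each of the 18 RNA samples was hybridised to an Affymetrix Human Gene ST array. Per the submitters' processing notes, the authors' deposited log2 values were made by RMA in R 2.7.1. They span 0.894 to 13.7 over 32321 features, and the medians of the arrays span 5.31 to 5.49. Gene names came from the platform annotation, updated through Entrez IDs. Of all features, 19158 had 1 gene, 1388 several and 11775 none. The build behind the table is not given in the sources used here, so no gene coordinates are printed. Promoter windows are RefSeq sequences of GRCh38.p14.

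A linear model of the 6 groups was fitted to the 20546 features with a symbol in limma 3.58.1 (R 4.3.3) with its empirical Bayes test, two-sided, with Benjamini-Hochberg adjustment within each contrast. Steps were tested on simulated data. Replicate numbers were read as pairing the arrays: deviations from group means correlated at 0.259 or more (median 0.597) in all 45 same-number pairs of arrays from different groups. Pairs with different numbers, which the subtraction pushes below 0 where same-number pairs are above it, had a median of -0.483 and reached 0.455. The block fit adds the replicate number. Its median SE of a difference was 0.107, against 0.157 without it. Arrays have no read depth, and 3 per group limit the precision. The labels call the repeats independent biological repeats.

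The 10 genes and the 15 gene lists (194 genes, of which 176 matched and the others were not analysed here) were chosen with earlier results of these data known. Named beside the 10 were up to 4 genes per list and contrast past the threshold in either fit, by size, or 2 with the largest mean T3 response where none passed, and 3 features most like each of the 10. Alternatives were array weights, all features, brighter features, median centring, a trended and robust prior, fits of the compared arrays alone, and leaving out arrays or repeats.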

Additional observations from a re-analysis of the deposited data

How the results depend on the processing

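Calls among the 10 genes depended mainly on whether the replicate number was in the model. The replicate block moved the number of calls to 1 from 0 for the 30 T3 responses within pools, to 1 from 0 for the response averaged over pools, to 8 from 1 for pool differences on vehicle and to 8 from 2 for pool differences on T3. A random block, chosen after seeing the data, gave 6 calls for pool differences on vehicle and 6 on T3, and none for the T3 responses (HAMP adjusted p = 0.635 in the TRβ1 pool). Array weights gave 2 on vehicle and 4 on T3, the compared arrays alone 1 on T3, and the mean of both treatments, chosen after seeing the data, 11 with the replicate block and 5 without it (CYBRD1 in all 3 comparisons, HPX and HMOX1 for TRα1 against control, adjusted p = 0.0096 and 0.0063). Over fits that left out 1 array or 1 repeat, pool differences on vehicle had 0 to 2 calls without the block and 3 to 9 with it, and on T3 0 to 3 and 3 to 9. Both counts of 0 came without replicate 3. The T3 responses had 0 without the block and, with it, 0 to 1 per pool and 1 to 2 for the mean (2 without the control vehicle array of replicate 3). Differences of responses had 0 throughout. No called difference changed direction. With the block, calls lost in single-array fits were HAMP on T3 in the TRβ1 pool (without its T3 array of replicate 1), HMOX1 for TRβ1 against TRα1 on T3 (without any of the 6 T3 arrays of these pools), HPX for TRβ1 against control (14 of 18 kept on vehicle, lost without TRβ1 vehicle replicates 1 or 2 or control vehicle replicates 1 or 3; 11 of 18 kept on T3, at 0.77 to 0.96, lost without any T3 array of these pools or control vehicle replicate 1) and CYBRD1 for TRβ1 against control on T3 (7 of 18 kept, at 0.47 to 0.76, lost without any control T3 array, TRβ1 T3 or control vehicle replicates 1 or 3, TRα1 T3 replicates 2 or 3, TRβ1 vehicle replicate 1 or TRα1 vehicle replicate 3). Without the block CYBRD1 for TRβ1 against TRα1 on T3 was lost without replicate 2 or 3 of either pool's T3 arrays (range -1.20 to -0.88). Restricting the fit to brighter features left out HFE. The alternative of a second feature per gene was not run, since each gene had 1.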
